A study of Mus musculus with 60 samples.

Results

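The change of the hippocampal transcriptome from the juvenile to the adult mouse was described in wild-type (WT) animals by setting 10 libraries of week 24 against 10 libraries of week 3, 20 of the 60 libraries of the series. Each set of 10 holds 5 libraries labelled female and 5 labelled male, and the labels give the genotype as wild-type, with no treatment and no strain. RNA was taken from bulk frozen hippocampus, ribosomal RNA was depleted, and reads were counted per gene. A further 10 WT libraries of week 8 divide the span into an early step (week 8 over week 3) and a late step (week 24 over week 8), and libraries of the AppNL-G-F knock-in line (NLGF), whose mouse App gene carries mutations of familial Alzheimer's disease, served as samples of another genotype. The labels call males and females of an age replicates but do not tie each library to an animal of its own, and the p-values below therefore speak of the scatter among libraries, which may be technical.

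The third postnatal week of the mouse is a time of weaning, of active myelination and of continuing granule cell birth in the dentate gyrus, while blood vessels and their matrix are still being remodelled. Circuits go on maturing after that. GABA-A receptors, the chloride channels of fast inhibition by GABA, exchange subunits, and microglia, the resident macrophages, take on their adult state. Some of these processes are largely over in the young adult and others run on slowly. In bulk tissue, fewer cells of a type and less RNA per cell cannot be told apart, and this holds for every level given below.

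Depth was similar across ages: libraries held 17.8 to 31.8 M (mega-counts) in the juveniles, between 19.3 and 28 M in the middle age group and from 21.3 up to 33.8 M in the adults. Levels are given as CPM, a gene's count scaled to an equal library total. The sex label matched Xist and the Y-linked Ddx3y in all 30 WT libraries. On the first principal component of log2(CPM + 1), which carried 21.1% of the variance, the week 24 libraries lay between -24.2 and -3.3, the week 3 females between -1.58 and 14.1 and the week 3 males between 22.5 and 31.9. The males and females of week 3 therefore formed separate sets. Among the week 8 libraries, female 1 stood apart at 26.1. The libraries also differed in how their counts leaned on the GC content of transcripts: per 10 percentage points of GC, levels deviated by 0.497 on the log2 scale in week 8 female 1, by -0.0158 to 0.315 in the week 3 males, by -0.111 to 0.0129 in the week 3 females and by -0.253 to 0.0754 at week 24. Markers of dentate granule cells and of pyramidal cells of the CA fields were present in every library, with summed levels of 1330 to 1960 and 1140 to 1670 CPM at week 3. Markers of the choroid plexus, which adjoins the hippocampus, varied within each age far more than between ages, with summed levels of 236 to 6510 CPM at week 3 and 195 to 8470 CPM at week 24, and 0 of 16 were called.

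**Figure D1:**
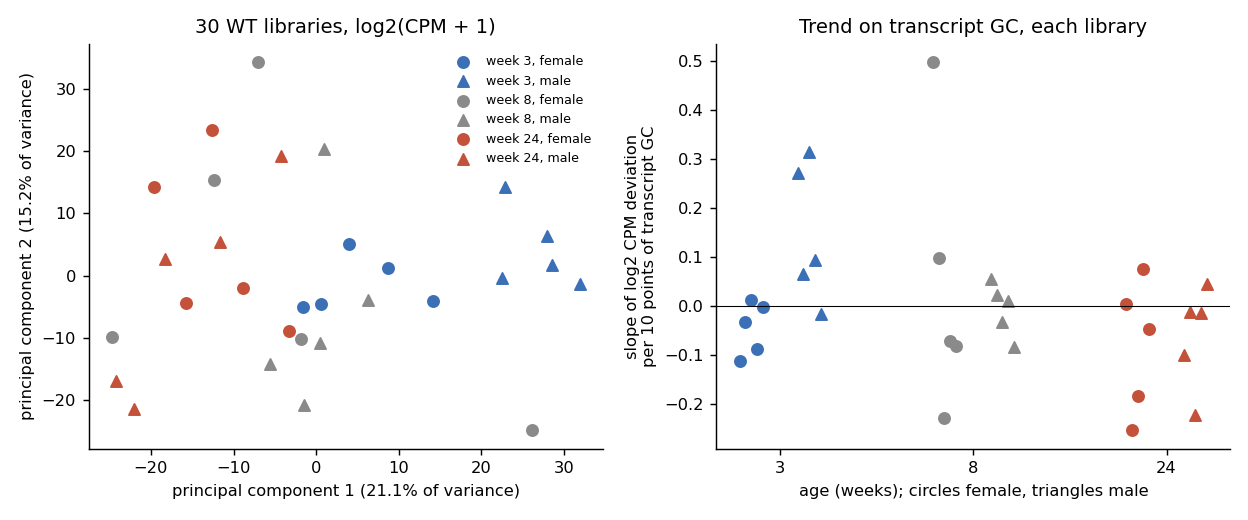
The left panel places the 30 WT libraries on their first principal components (share of variance on the axes), and the right panel gives for each library the slope of its log2 CPM deviation from the gene means on transcript GC content, per 10 percentage points. Colours mark the age, circles females and triangles males; the week 3 males lie at 22.5 to 31.9 on the first component, apart from the week 3 females, and week 8 female 1 has the steepest slope (0.497).

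Over the full span, 3693 of 16844 genes tested (21.9%) were called, which here means an adjusted p under 0.05 in edgeR's quasi-likelihood F-test with sex as a covariate. Of these 1786 (10.6%) rose and 1907 (11.3%) fell, and 5776 genes had an unadjusted p under 0.05. Most of the changes were small. The median absolute log2 fold change of the called genes was 0.388, a 1.31-fold change, against 0.163 over all genes tested, and 121 genes rose and 228 fell by at least 2-fold. The 10 libraries of week 24 lay entirely above those of week 3 for 148 genes (0.879%) and entirely below for 325 genes (1.93%). At the edge of the threshold stood Ncapg, called at an adjusted p of 0.04993, and Prss23, not called at 0.05001 (edgeR).

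Among genes with established symbols that averaged 1 CPM or more, the largest changes were falls. Casr, the calcium-sensing receptor, stood at 5.37 to 13.4 CPM at week 3 (median 8.21), at 0.403 to 2.56 at week 8 and at 0.241 to 0.857 at week 24 (median 0.414), with no overlap between weeks 3 and 24. Its log2 fold change was -4.07 ± 0.26 (SE; edgeR adjusted p = 1.16e-12). Col3a1, a fibrillar collagen of the meninges and vessel walls, went from a median of 23.4 to 2.21 CPM, and Igfbpl1, expressed in newborn neurons, from 9.67 to 0.907 CPM. Gpr17, a receptor of differentiating oligodendrocyte precursors, had the smallest p of the comparison (adjusted p = 1.03e-14, edgeR), with 104 to 228 CPM at week 3 and 33.9 to 46.9 CPM at week 24. All of these were already lower at week 8. The largest rises among such genes were those of Fmo2, a flavin monooxygenase, with a log2 fold change of 2.39 ± 0.39, and of Il33, an alarmin that glia release, which went from 7.24 to 20.2 CPM at week 3 to 34.2 to 62.2 CPM at week 24. Both were called by week 8.

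The steps taken alone accounted for few of the calls. The early step called 1202 genes (7.14%) and the late step 47 (0.279%), of which 6 rose and 41 fell. In the late step 1935 genes had an unadjusted p under 0.05, and DESeq2 called 111. Of the 3693 genes called over the span, 1042 (28.2%) were called in the early step only, 18 (0.487%) in the late step only and 29 (0.785%) in both. The remaining 2604 genes, 15.5% of those tested and 70.5% of the calls, passed the threshold in neither step and only over the full span. They are called span-only genes below. This class rests on thresholds in comparisons that share libraries, so it tells which genes needed the whole interval to pass, and a missed threshold in a step does not show that nothing changed there.

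Among the span-only genes, 1396 rose and 1208 fell, out of 1786 rises and 1907 falls in all. Their median absolute log2 fold change was 0.347 over the span, 0.181 over the early step and 0.165 over the late one. By week 8 they had covered a median of 52.6% of their log2 change (quartiles 38.8% and 66.7%). Over all called genes, the span-only ones included, the median was 60.9%. Both steps pointed the same way in 2529 of the 2604 (97.1%), and the week 8 median lay between the others in 2391 (91.8%). The definition of the class favours such shares, since the early and late changes add up to the span and neither may be called. The direction was the same in each sex for 2593. At least a 1.5-fold change was reached by 269 that rose and 258 that fell, and the libraries of weeks 24 and 3 did not overlap for 48 and 42 of them. Some were close to a call in a step: 1148 had an unadjusted p under 0.05 in the early step and 862 in the late one, which leaves 803 (438 higher and 365 lower) with neither.

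**Figure D2:**
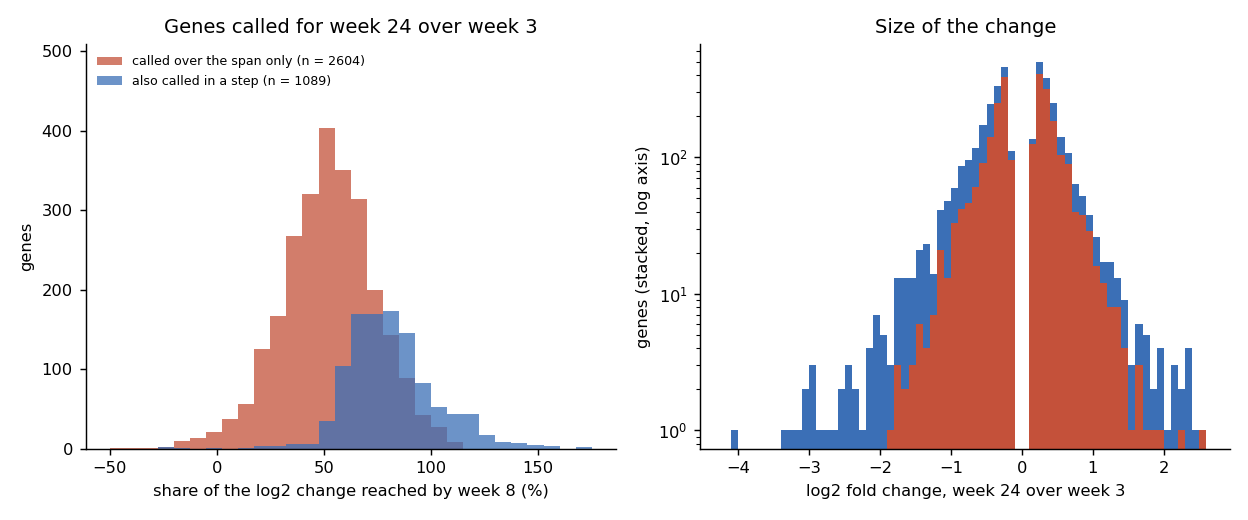
The left panel counts the genes called for week 24 over week 3 by the share of their log2 change that was reached at week 8, with values beyond the axis drawn in the end bins; the right panel counts the same genes by log2 fold change, stacked, on a log axis. The 2604 genes called over the full span only (red) centre on a share of 52.6%, which their definition favours. They hold fewer of the large falls than the genes also called in a step (blue).

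Membership of this class moved with single libraries of every age. With 1 library left out, 76.2% (without week 3 male 3) to 95.1% (without week 8 female 4) of the span-only genes stayed in it; the share was 76.8% without week 3 male 2 and 77% without week 24 male 3. Among the week 8 libraries female 1 moved it most, and the other 9 left 92.4% or more. Without week 8 female 1 the early step called 2029 genes instead of 1202, and 2017 of the 2604 span-only genes (77.5%) stayed in the class, while all 2604 were still called over the span. Of the 2604, 975 (37.4%; 503 higher and 472 lower) were span-only whichever of the 30 WT libraries was left out. The class also differed in base composition. The longest transcript of the span-only genes that rose had a median GC content of 45.5% and that of those that fell 52.8%, against 49.8% over all genes tested. In the fifth of genes with the lowest GC content, 18% were span-only and higher and 1.81% span-only and lower; in the fifth with the highest, these shares were 3.19% and 11.4%. Across 13775 genes that averaged 1 CPM or more, the log2 fold change of the span and transcript GC correlated at a Spearman rho of -0.29, at -0.38 in males alone and at -0.08 in females alone; genes are not independent replicates and these values are descriptions. In a fit chosen after the data were seen, in which offsets removed the GC trend of each library, 4132 genes were called over the span (54.1% of them higher, against 48.4%), and 1784 of the 2604 span-only genes (68.5%) stayed in the class. Of the span-only genes named below, Lars2, ND2, C4b, Hspg2, Vwf, Kcnb2, Gabrb1 and Gabrb2 left the class in that fit and also without week 8 female 1. Eomes, Agt, P2ry12, C1qb, Irf7, Dbp and Slc12a2 left it in that fit, and Aldh1l1, Pdgfrb, Gabra3, Gabra4, Rps24, Ddit4 and Bace1 without that library. The part of base composition in the other results was not tested.

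Several subunits of the GABA-A receptor, the chloride channel that carries fast inhibition, were higher in the adult, by small steps. Of 15 genes tested for GABA-A receptors and chloride transport, 8 rose and 1 fell over the span, and all 9 were span-only; the median log2 fold change of the list was 0.31, against 0.0078 over all genes tested. Gabra4, the subunit of extrasynaptic receptors of the dentate gyrus (chromosome 5, 71569734 to 71658308 of GRCm38.p6), separated the ages without overlap, with 49.1 to 72.9 CPM at week 3 and 74.1 to 121 at week 24, and 72 in the median at week 8. Its log2 fold change was 0.54 ± 0.10 (edgeR adjusted p = 0.000236).

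Gabra3, a subunit frequent in immature forebrain, did not fall but rose in these libraries, from 24.6 to 58.5 CPM at week 3 (median 32.2) to 34.6 to 94.5 CPM at week 24 (median 61.7). Of its 10 adult libraries 8 exceeded every juvenile one, and the log2 fold change was 0.82 ± 0.19 (edgeR adjusted p = 0.00258). At week 3 every male library lay below every female one for Gabra3. Gabrg1 rose by 0.60, Gabrb2 by 0.46 and Gabrb1 by 0.31, of which Gabrb1 and Gabrb2 were chosen after their values were seen. Slc12a2, the transporter that loads chloride into immature neurons, was the member that fell, by 0.47 (adjusted p = 0.0414, edgeR), from a median of 158 to 108 CPM, with 93.2% of the change reached by week 8. It too was chosen after its value was seen, and it was span-only in 17 of the 30 fits that left out 1 library. Gad1, which makes GABA, went from 214 to 316 CPM at week 3 to 267 to 409 at week 24, a rise of 0.26 ± 0.08 that was span-only as well. With the GC trend removed 7 of the list rose and 1 fell, with 6 span-only rises. Without week 8 female 1 only 3 of the 8 rises stayed span-only, and Gabra3, Gabra4, Gabrb1 and Gabrb2 were among those that left the class. In males alone 8 members rose and in females alone 0, with list medians of 0.37 and 0.23; the sexes' difference was not called for a member.

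Other lists of transmission genes held calls as follows, beside 21.9% of all genes tested. Of 24 ionotropic glutamate receptor genes 2 rose, both span-only, among them Cacng3, an auxiliary subunit of AMPA receptors, by 0.41, a call lost in 5 of the 30 fits that left out 1 library. Of 30 potassium channel genes 5 rose and 2 fell, all span-only, with Kcnb2 at a log2 fold change of 0.30, not called with the GC trend removed (adjusted p = 0.18, edgeR); 2 of the rises stayed span-only without week 8 female 1. Of 30 genes of synaptic vesicles and the postsynaptic density 3 rose and 1 fell; the fall was that of Syp, synaptophysin, by 0.36, and its call was lost in 12 of the 30 fits that left out 1 library (largest adjusted p = 0.0655, edgeR). Nptx2, a secreted pentraxin that clusters AMPA receptors, fell from 30.6 to 64.8 CPM at week 3 to 17.9 to 39.9 at week 24, with a log2 fold change of -0.76 ± 0.18 (edgeR adjusted p = 0.0033).

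Several microglial genes rose by small amounts over the span. Of 20 genes of homeostatic microglia 7 rose and 2 fell, and the 7 rises were span-only. Over all genes tested 10.6% rose and 11.3% fell, and 1396 of 1786 rises were span-only. In females alone 1 gene of the list rose and in males alone 4, and 4 to 8 rose with 1 library left out. Gpr34, a lysophosphatidylserine receptor of microglia, lay at 2.33 to 6.58 CPM at week 3 (median 4.71), at 3.01 to 8.11 at week 8 (median 4.83) and at 5.21 to 9.37 at week 24 (median 7.06). Of its adult libraries 6 exceeded every juvenile one, and the log2 fold change was 0.69 ± 0.17 (edgeR adjusted p = 0.00323). The juvenile males again lay below the juvenile females for Gpr34. Trem2, a lipid receptor of microglia, went from a median of 5.66 to 7.52 CPM (0.39 ± 0.11), and here too 6 adult libraries lay above the juvenile range. P2ry12, the ADP receptor of resting microglia, went from a median of 19.7 to 24.9 CPM and its call was less firm: it was lost when any of 9 libraries was left out, and with the GC trend removed its log2 fold change was 0.27 (adjusted p = 0.112). Of 17 plaque-associated or ageing microglia genes 0 rose and 1 fell, Cd9, by 0.55.

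Of 17 complement genes tested, 3 rose and 0 fell, beside 10.6% rising and 21.9% called among all genes tested. All 3 were span-only, against 15.5% span-only among all genes tested and 1396 of 1786 among all rises. With other scaling, tests, filters or designs the number of complement rises ran from 1 to 6. C4b (chromosome 17, 34728139 to 34743902), a complement factor that astrocytes and oligodendrocytes make more of with age, lay at 24.3 to 33.9 CPM at week 3 (median 29.4), at 23.7 to 70 at week 8 (median 37.6) and at 32.4 to 81.7 at week 24 (median 51.5). Of the adult libraries 9 exceeded every juvenile one, and the log2 fold change was 0.85 ± 0.14 (edgeR adjusted p = 3.98e-05). The highest week 8 value was that of female 1, and C4b left the span-only class without that library, without week 8 female 5 and with the GC trend removed. C1qa and C1qb, subunits of the initiating complex, which microglia make, rose by 0.22 and 0.19; C1qa lost its call in 16 of the 30 fits that left out 1 library and C1qb in 6.

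**Figure D3:**
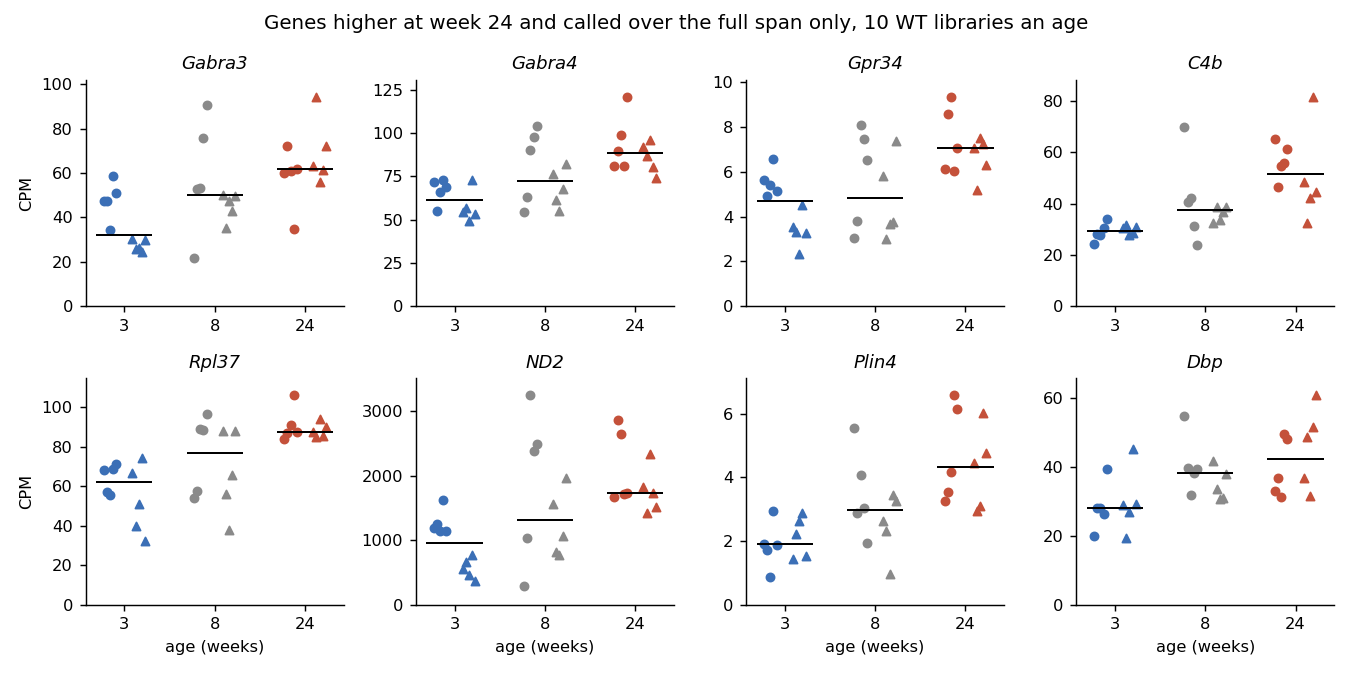
CPM of 8 genes that rose and were called over the full span only, in each of the 10 WT libraries of weeks 3, 8 and 24 (circles female, triangles male, bars medians; axes start at 0). The ages 3 and 24 do not overlap for Gabra4, Rpl37 and Plin4, and they overlap for Gabra3, Gpr34, C4b, ND2 and Dbp.

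Most mitochondrially encoded transcripts were higher in the adult. Of the 13 protein-coding genes of the mitochondrial genome 8 rose and 0 fell, with a list median of 0.88, and 6 of the rises were span-only. ND2, a subunit of complex I (mitochondrial genome, 3914 to 4951), lay at 366 to 1630 CPM at week 3 (median 959), at 299 to 3250 at week 8 and at 1420 to 2870 at week 24 (median 1740), a log2 fold change of 1.18 ± 0.28 (edgeR adjusted p = 0.00258). The week 3 values of ND2 split by sex, with 1140 to 1630 CPM in the females and 366 to 775 CPM in the males, and the log2 fold change was 1.63 in males and 0.73 in females; that difference was not called (adjusted p = 0.1383, edgeR). Summed over the mitochondrially encoded genes, the week 3 females lay at 15150 to 20010 CPM, the week 3 males at 8468 to 12370 CPM, and the adults of both sexes at 19240 to 30160 CPM. In females alone 0 of the 13 were called and in males alone 8. Without week 8 female 1, whose sum of 6033 CPM was the lowest of its age, the span still called 8, but none of the list was span-only (0 of 13). With the GC trend removed, the median of the list was 0.66 and 8 rose, 5 of them span-only, ND2 no longer among these.

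Of 30 genes of the cytosolic ribosome 12 rose and 1 fell, 11 of the rises span-only, and the list median was 0.115. In females alone 1 rose and in males alone 8. Rpl37 (chromosome 15, 5116613 to 5119140) lay at 32 to 74.4 CPM at week 3 and at 84 to 106 CPM at week 24, without overlap, and rose by 0.62 ± 0.14 on the log2 scale (edgeR adjusted p = 0.00154). Rps24 went from 66.9 to 128 CPM at week 3 to 130 to 161 CPM at week 24, again without overlap. These genes have many processed copies in the genome, and how reads of such copies were counted is not given in the sources used here; Rps27rt, a copy of Rps27, rose by 1.35 and Rps27 itself by 0.64, and reads of the pair may have been split. Of 28 nuclear genes of oxidative phosphorylation 2 rose and 1 fell, beside 21.9% called among all genes tested.

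Several genes of the circadian clock were higher at week 24. Of 18 tested, 9 rose and 0 fell, 6 of them span-only, with a list median of 0.30. Over all genes tested 10.6% rose, and 1396 of 1786 rises were span-only. In females alone 2 of the list rose and in males alone 9. Dbp, an output transcription factor of the clock (chromosome 7, 45705100 to 45710203), went from 19.2 to 45.1 CPM at week 3 (median 28) to 31.2 to 60.7 at week 24 (median 42.4), and its log2 fold change was 0.55 ± 0.14 (edgeR adjusted p = 0.00518). Npas2 rose by 0.54 and Hlf, a partner of Dbp, by 0.47. Dbp, Npas2 and Hlf lost their calls in females alone. The hour of collection is not given in the sources used here, and its part in these values was not tested. Without week 8 female 1 the number of span-only rises in the list was 9, and Dbp left the class without week 3 male 4 and with the GC trend removed.

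Other span-only rises stood outside these groups. Plin4, a lipid droplet coat protein, lay at 0.859 to 2.93 CPM at week 3, 0.965 to 5.56 at week 8 and 2.95 to 6.58 at week 24, without overlap of the outer ages, and rose by 1.15 ± 0.22. Cdr1 is the locus of an abundant circular RNA of neurons, whose linear and circular forms these counts do not separate. It went from a median of 474 to 1020 CPM and scattered from 142 to 1390 CPM at week 8, over values of both outer ages. Ghr, the growth hormone receptor, rose by 0.55 and Hapln2, a link protein of the node of Ranvier, by 0.70, from 4.89 to 11.3 CPM at week 3 to 8.04 to 16.1 CPM at week 24. Lin28b, an RNA-binding protein known from early development, rose by 0.94 from a median of 1.35 CPM. Cdr1, Ghr, Hapln2 and Lin28b were span-only whichever library was left out.

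The top of the list by fold change was less regular. Lars2, a mitochondrial leucyl-tRNA synthetase, had the largest rise of the span-only genes with established symbols that averaged 1 CPM or more (1.94 ± 0.64) but its log2 fold change was -1.03 in the early step and 2.97 in the late one, neither called, with 24.4 to 478 CPM at week 3 and 47.7 to 771 CPM at week 24. Cbln3, a cerebellin, also had steps of opposite sign, -0.54 and 2.16, on medians of 0.67 CPM at week 3 and 1.29 CPM at week 24. For Xdh, xanthine dehydrogenase, no adult library exceeded every juvenile one, because week 3 female 5 stood at 17.5 CPM against at most 4.46 in the other juveniles. Lars2 was span-only in 20 of the 30 fits that left out 1 library, and Xdh in all but that without week 3 female 5.

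Many genes of blood vessels fell. Of 24 endothelial genes 12 fell and 0 rose, 8 of the falls span-only, a share near the 1208 of 1907 among all falls. Of 14 genes of pericytes and smooth muscle 4 fell, all span-only. Among all genes tested 11.3% fell. Vwf, the endothelial clotting factor (chromosome 6, 125552948 to 125686679), lay at 27.6 to 97 CPM at week 3 (median 64.3), at 17.5 to 68.8 at week 8 (median 34.8) and at 18.2 to 62.3 at week 24 (median 29.1), with a log2 fold change of -0.99 ± 0.25 (edgeR adjusted p = 0.00427). Cldn5, the claudin of the blood-brain barrier, went from a median of 23.6 to 16.9 CPM (-0.52 ± 0.14), and Pdgfrb, the receptor that marks pericytes, from 49.2 to 36.6 CPM (-0.42 ± 0.10). Pcdh12, an endothelial protocadherin, fell by 1.44, from 0.559 to 3.3 CPM at week 3 to 0.146 to 0.969 CPM at week 24. Each of these genes overlapped between the ages in at least 1 library. In females alone 2 of the endothelial genes fell and in males alone 12.

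Genes of the matrix around vessels fell too. Of 18 basement membrane genes 15 fell and 0 rose, 7 of the falls span-only, and the list median was -0.75. Hspg2, perlecan (chromosome 4, 137468751 to 137570630), lay at 43.5 to 124 CPM at week 3 (median 68.8), at 29.7 to 79.2 at week 8 (median 46.2) and at 28.7 to 70.9 at week 24 (median 34.5), and fell by 1.02 ± 0.20 (edgeR adjusted p = 0.000498). The largest adult value of Hspg2 was that of male 4; the other 9 adult libraries, at 28.7 to 41.5 CPM, lay below every juvenile one. Nid2, a nidogen that links laminin to collagen, fell by 0.96, from a median of 13.9 to 6.08 CPM. Hspg2 and Vwf left the span-only class without week 24 male 4, without week 8 female 1 and with the GC trend removed, whereas Nid2 and Cldn5 stayed span-only in these fits. Col4a1 and Nid1, by contrast, had log2 fold changes of -1.75 and -1.60, did not overlap and were called in both steps.

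Genes of meningeal fibroblasts fell as well, as did Mrc1, a gene of macrophages at brain borders. Mrc1, the mannose receptor of border macrophages (chromosome 2, 14229414 to 14332023), went from 4 to 12.4 CPM at week 3 (median 8.57) to 3.2 to 10.5 at week 8 and 2.44 to 6.46 at week 24 (median 3.37), a fall of 1.15 ± 0.22 (edgeR adjusted p = 0.000265). Slc6a13, a GABA transporter of meningeal fibroblasts, fell by 1.03, and Col6a1, a microfibrillar collagen, by 0.94. Of 20 genes of fibrillar collagen and meningeal fibroblasts 12 fell and 0 rose, 5 of them span-only. In week 24 male 4, Mrc1 (6.46 CPM), Slc6a13 (9.41 CPM), Vwf (62.3 CPM) and Hspg2 were all at the top of their age. Summed markers of this list were 848 to 1330 CPM at week 3 and 442 to 853 CPM at week 24, and how much border tissue each dissection held was not tested.

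**Figure D4:**
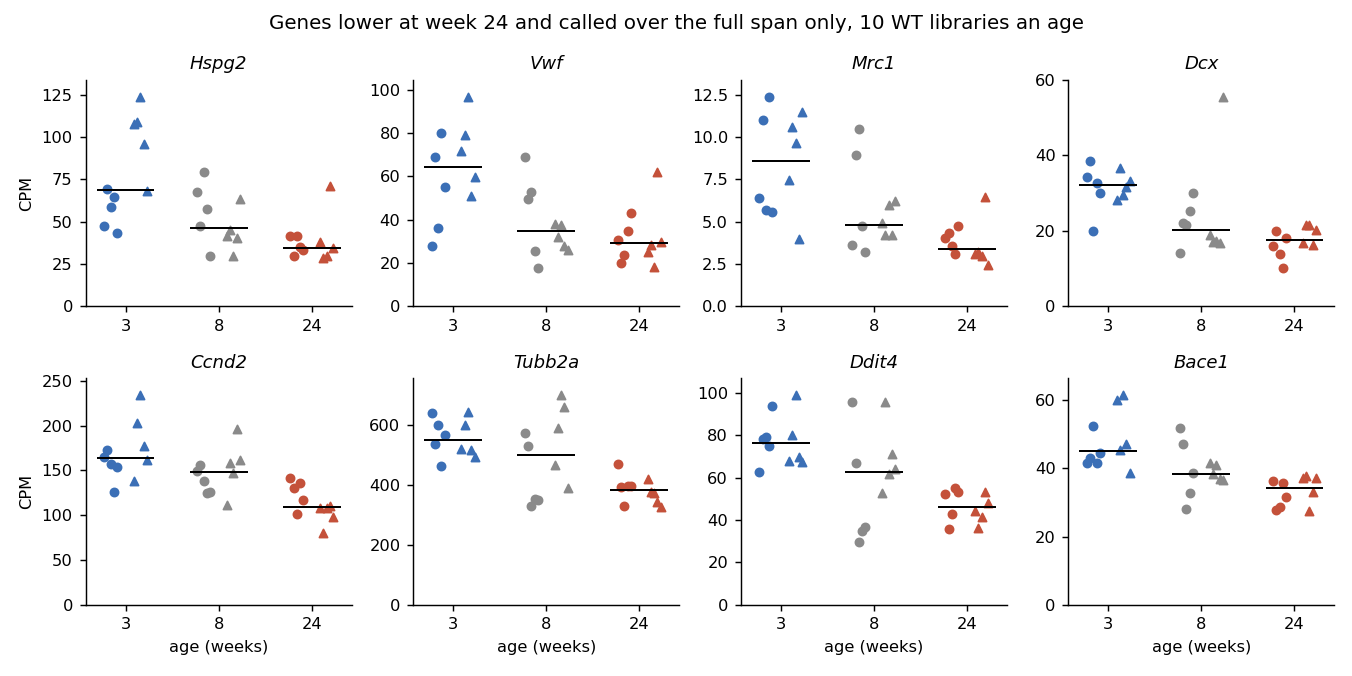
CPM of 8 genes that fell and were called over the full span only, in each of the 10 WT libraries of weeks 3, 8 and 24 (circles female, triangles male, bars medians; axes start at 0). The ages 3 and 24 do not overlap for Ddit4 and Bace1, 1 adult library reaches the juvenile range for Hspg2, and 6 do for Vwf and 4 for Mrc1.

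Many genes of newborn and immature neurons fell, some in the early step, some in the late step and some only over the span. Of 24 such genes 13 fell and 1 rose. The early step called 9 of the list lower and the late step 7, with list medians of -0.301 and -0.315. Only 3 of the falls were span-only, and with the GC trend removed the list held 1 span-only fall. Dcx, doublecortin, a microtubule protein of migrating neurons, lay at 20 to 38.5 CPM at week 3 (median 32.1), at 14.1 to 55.6 at week 8 (median 20.1) and at 10.2 to 21.4 at week 24 (median 17.5), and fell by 0.86 ± 0.18 (edgeR adjusted p = 0.000912). The highest week 8 value was that of male 5, at 55.6 CPM against at most 30 in the others, and without that library Dcx was not span-only. Eomes, a transcription factor of intermediate progenitors, had the largest fall of the span-only genes with established symbols that averaged 1 CPM or more (-1.56 ± 0.55) at levels of 0 to 3.31 CPM in the adult; its call was lost without any of 13 libraries and with the GC trend removed (adjusted p = 0.0584). Tubb2a, a β-tubulin of growing neurites, fell by 0.55, from 463 to 642 CPM at week 3 to 326 to 468 CPM at week 24, and was span-only in all these fits. Of 23 tubulin and neurofilament genes 5 fell and 1 rose, Nefm, a neurofilament subunit of mature axons, by 0.46. The median log2 fold change of that list was -0.068, and 21.9% of all genes tested were called.

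Proliferation genes fell both early and only over the span. Of 22 genes of the cell cycle and DNA replication 17 fell and 0 rose, 9 of the falls span-only, with a list median of -0.82. Some were called in the steps: Top2a, the topoisomerase of dividing cells (chromosome 11), lay at 4.14 to 7.24 CPM at week 3, 1.89 to 4.24 at week 8 and 0.802 to 1.67 at week 24, and was called in both steps, as were Mki67 and Cenpf. Others passed over the span only. Mcm3, a subunit of the replicative helicase (chromosome 1), lay at 3.36 to 5.65 CPM at week 3 (median 4.18), at 2.73 to 4.31 at week 8 (median 3.65) and at 2.04 to 3.79 at week 24 (median 2.94), a fall of 0.61 ± 0.12 (edgeR adjusted p = 0.000503). Ccnd2, the D-type cyclin of neural progenitors and granule cells, fell by 0.58 ± 0.11, from 126 to 234 CPM at week 3 to 79.8 to 142 CPM at week 24. Mcm3 and Ccnd2 were span-only whichever library was left out.

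The promoters of Top2a, called in both steps, and of Mcm3, called over the span only, are printed below. They show motif letters that part of the list holds. Hmgcs1, the synthase at the head of cholesterol synthesis, is printed as a gene of the list that fell almost wholly in the early step. Each window runs from 250 bases before to 50 after the RefSeq start (GRCm38.p6), 5′ to 3′ on the gene's strand: chr11:99024140-99024439 for Top2a and chr1:20820263-20820562 for Mcm3, both on the minus strand, and chr13:119690101-119690400 for Hmgcs1 on the plus strand. Capitals mark matches on either strand of CCAAT, of TTTGAA, the core of the element bound in mitotic genes (Top2a), of TTTGGCGC and TTTCCCGC, letters of E2F sites (Mcm3), and of TCACCCCAC, letters of a sterol regulatory element (Hmgcs1). No match overlapped another. Genes and motifs were chosen after the values were seen.
Top2a: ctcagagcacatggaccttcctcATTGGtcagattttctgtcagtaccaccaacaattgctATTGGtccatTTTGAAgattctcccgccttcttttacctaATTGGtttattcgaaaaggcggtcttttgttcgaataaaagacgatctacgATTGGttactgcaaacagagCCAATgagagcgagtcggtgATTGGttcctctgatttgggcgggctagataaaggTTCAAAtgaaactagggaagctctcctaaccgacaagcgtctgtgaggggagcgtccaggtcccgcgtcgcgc
Mcm3: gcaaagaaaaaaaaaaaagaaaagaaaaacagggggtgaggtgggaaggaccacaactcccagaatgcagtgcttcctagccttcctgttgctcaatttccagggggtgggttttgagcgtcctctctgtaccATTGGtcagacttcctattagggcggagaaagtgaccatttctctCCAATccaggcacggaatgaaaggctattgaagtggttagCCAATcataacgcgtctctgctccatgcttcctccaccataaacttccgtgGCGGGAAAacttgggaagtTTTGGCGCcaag
Hmgcs1: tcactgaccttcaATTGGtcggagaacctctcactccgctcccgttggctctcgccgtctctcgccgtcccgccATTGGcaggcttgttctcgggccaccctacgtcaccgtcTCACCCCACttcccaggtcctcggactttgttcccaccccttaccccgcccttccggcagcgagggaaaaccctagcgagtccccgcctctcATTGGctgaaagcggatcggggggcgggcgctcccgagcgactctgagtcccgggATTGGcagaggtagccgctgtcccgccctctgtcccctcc

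Of the list's 18 genes with a window, 14 (77.8%) hold CCAAT, 7 (38.9%) TTTGAA, 3 (16.7%) TTTGGCGC and 4 (22.2%) TTTCCCGC. Over the 12291 tested genes with a window, the shares were 42.3%, 14.5%, 1.04% and 2.04%. For cholesterol synthesis, 16 of 16 genes hold CCAAT, and 1 of 16 (6.25%), Hmgcs1 itself, holds TCACCCCAC, against 0.683% of all. A gene counted as holding a motif if any of its windows matched on either strand, and the number of windows per gene was not compared. These are matches of letters and not sites shown to be bound.

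The lists that changed mainly by week 8 form the contrast to those with many span-only calls. Of 24 cholesterol synthesis genes 20 fell over the span and 17 in the early step, and 3 were span-only; Hmgcs1 went from 318 to 508 CPM at week 3 to 196 to 273 CPM at week 24, already 208 to 332 at week 8. Of 25 genes of oligodendrocytes and myelin 15 fell, all but 1 of them in the early step, while the 4 that rose were all span-only, Hapln2 and Car2, a carbonic anhydrase, among them. Of 20 genes of oligodendrocyte precursors 13 fell, 2 of them span-only. Of 8 blood genes 6 fell, such as the globin Hbb-bt, all of them in the early step. The list of DNA methylation and chromatin was not of this kind. Of its 26 genes 9 fell and 2 rose, with list medians of -0.00588 in the early step and -0.0925 in the late one. The early step called 5 of them lower and the late step 3. Dnmt3a, the de novo DNA methyltransferase, fell in both steps, from a median of 200 to 120 and 88.4 CPM. Among the falls 3, Ezh2 included, were span-only.

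**Figure D5:**
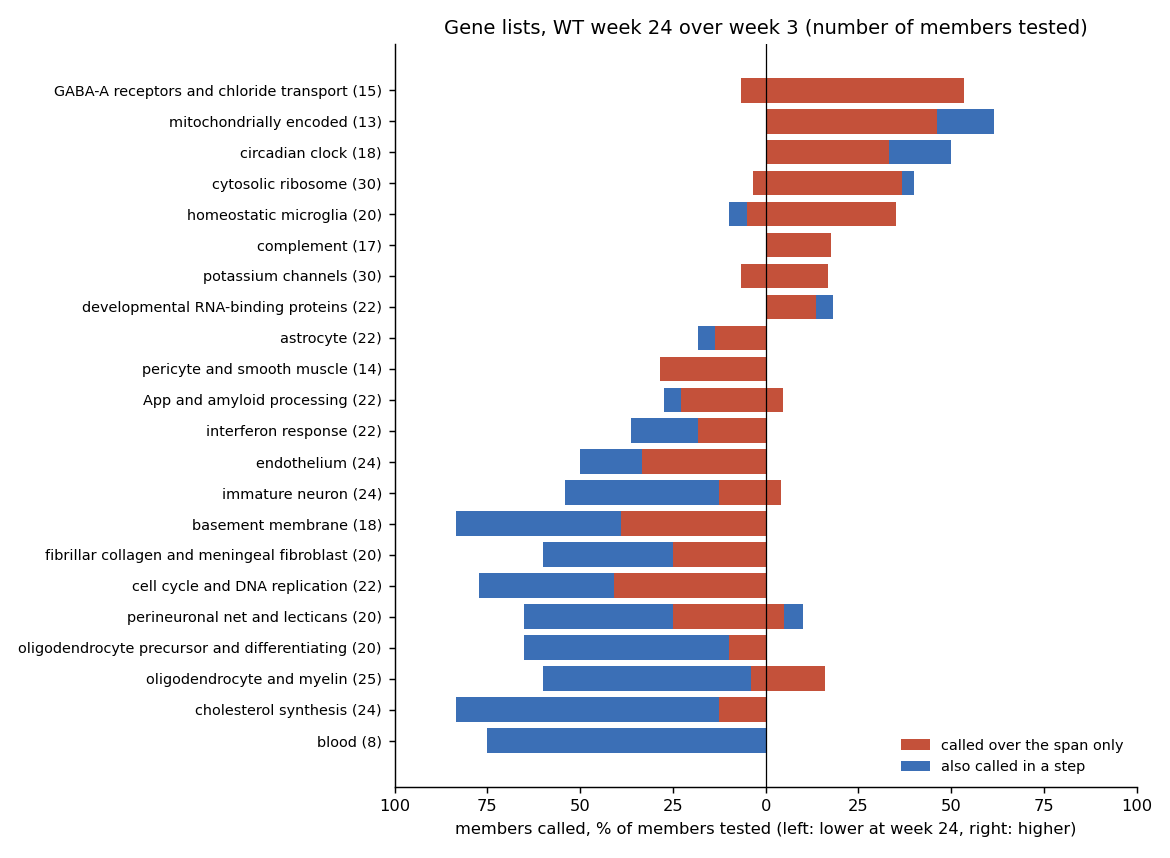
For 22 gene lists, the share of members tested (number in brackets) that were called lower (left) or higher (right) at week 24 than at week 3 in WT, divided into genes called over the full span only (red) and genes also called in a step (blue). Of the rises, 8 of 8 for GABA-A receptors, 11 of 12 for the cytosolic ribosome and 3 of 3 for complement were span-only, against 1396 of 1786 over all genes; of the falls, 3 of 20 for cholesterol synthesis and 0 of 6 for blood were, against 1208 of 1907.

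Stress and signalling genes added further span-only falls. Ddit4, an inhibitor of mTOR that glucocorticoids induce (chromosome 10, 59949675 to 59951770), lay at 62.8 to 99 CPM at week 3 (median 76.5), at 29.5 to 95.9 at week 8 (median 62.8) and at 35.9 to 55.1 at week 24 (median 46.1). All adult libraries lay below all juvenile ones, and the log2 fold change was -0.74 ± 0.16 (edgeR adjusted p = 0.0013); without week 8 female 1 it was not span-only. Cdkn1a, the p21 inhibitor of the cell cycle, fell by 0.90, from a median of 10.9 to 5.58 CPM. Of 15 glucocorticoid response genes 3 rose, Plin4 among them, and 2 fell, so that the list did not move one way. Of 22 interferon response genes 8 fell and 0 rose, 4 of them span-only, with Irf7 (-0.79) and Rtp4 (-0.78) among these. The medians of the interferon list were -0.349 in the early step, which called 5 lower, and 0.0732 in the late one. Over all genes tested 21.9% were called, 11.3% fell and 15.5% were span-only, and 1208 of 1907 falls were span-only. The call of Irf7 was lost in 7 of the 30 fits that left out 1 library (largest adjusted p = 0.127, edgeR) and in 8 of 12 other settings, voom among them. Gbp2, an interferon-induced GTPase, fell by 1.47 on the strength of week 3 female 5, at 52.5 CPM against 1.85 to 4.31 in the other juveniles; without that library its log2 fold change was -0.21 (adjusted p = 0.369, edgeR).

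Among genes of amyloid processing, Bace1, the β-secretase (chromosome 9, 45838545 to 45862484), lay at 38.5 to 61.4 CPM at week 3 (median 45), at 28.1 to 51.9 at week 8 (median 38.4) and at 27.6 to 37.8 at week 24 (median 34.3). The ages 3 and 24 did not overlap, and the fall was 0.51 ± 0.10 (edgeR adjusted p = 0.000178). Of 22 genes of this list 6 fell and 1 rose, with 5 span-only falls. Without week 8 female 1 or female 2, Bace1 was not span-only. Of 22 astrocyte genes 4 fell and 0 rose, 3 of them span-only: Agt by 0.56, Aldh1l1 by 0.35 and Gja1, the main astrocyte connexin, by 0.29. Beside the counts of both lists, 21.9% of all genes tested were called, 11.3% fell and 15.5% were span-only. Agt lost its call in 13 of the 30 fits that left out 1 library and with the GC trend removed (adjusted p = 0.0932, edgeR). Npnt, a matrix ligand of the dentate gyrus, fell by 0.72, from 26.8 to 52.1 CPM at week 3 to 13.5 to 30.9 CPM at week 24. Eya2, a transcriptional cofactor, went from a median of 2.95 to 1.36 CPM, and 9 of its 10 adult libraries lay below every juvenile one.

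More genes passed the threshold in the males' libraries. Fitted alone, the 15 libraries labelled male called 3713 genes and the 15 labelled female 816. The difference itself, the male change minus the female change over the 20 libraries of weeks 3 and 24, was called for 12 of 16324 genes (edgeR, adjusted over all of them), with 2660 at an unadjusted p under 0.05. All 12 differences were positive. Fkbp3, a nuclear immunophilin, had a log2 fold change of 0.84 in males and 0.02 in females, a difference of 0.82. Marcks, a substrate of protein kinase C, had 0.56 in males and -0.34 in females. ND6, encoded by the mitochondrial genome, had 1.89 in males and 0.77 in females. These genes were named after their values were seen. DESeq2 called 415 genes, and with single libraries left out edgeR called from 1 (without week 24 female 1 or week 3 female 2) to 369 (without week 3 male 5). The juvenile males stood apart as a set on the first principal component. Their GC trends, at -0.0158 to 0.315, reached higher than those of the juvenile females, at -0.111 to 0.0129, but the ranges overlapped. A difference between the sexes and a difference between the week 3 library sets therefore cannot be told apart.

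In NLGF libraries, which the choice of the span-only genes did not use, the same span was fitted on 23 of 30 libraries. The 7 week 3 libraries with more than 50 M counts were left out, so that 3 juvenile libraries remain; week 8 female 1, whose age label reads 3 weeks against its title, entered as week 8. In all, 5167 of 18431 genes (28%) were called. Of the 2604 span-only genes 2459 (94.4%) had a fold change of the same sign, against 73.1% of all genes tested in both genotypes and 66.9% of genes not called in WT. A total of 1461 (56.1%) were called in the same direction and 2 in the opposite one. With all 30 libraries 2380 of 2603 had the same sign and 1155 were called. Gabra3 rose by 0.91, Gpr34 by 1.13, Rpl37 by 0.67 and ND2 by 1.47, and Dcx fell by 0.89, Pdgfrb by 0.49 and Ddit4 by 0.69, each called. Mcm3 (-0.33), Nid2 (-0.28), Slc12a2 (0.11) and Dbp (0.19) were not. Without NLGF week 3 male 1 the number of these slow genes in NLGF called in the same direction was 673. The NLGF line develops amyloid plaques by week 24. Trem2, a gene of glia, had a log2 fold change of 1.28 in NLGF and 0.39 in WT. For such genes the parts of age and of genotype in the NLGF change cannot be told apart. The difference between the genotypes was not tested.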

How the data were processed

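The series holds RNA-seq of bulk mouse hippocampus. Per the labels, total RNA was extracted from frozen tissue and sequenced after depletion of ribosomal RNA; the submitters' processing notes list STAR, FastQC, DESeq2, edgeR and mm10 but give no roles. The deposited table holds raw counts per gene made by the authors; the counter, its strand setting, the annotation and the treatment of reads matching several genes were not found in the labels or headers. Groups, ages and sexes came from the sample titles; for 1 NLGF library, week 8 female 1, the age label reads 3 weeks, and it was used as week 8. Total counts per library were 17.8 to 33.8 M (mega-counts) in WT. Counts were fitted with edgeR 4.0.16 (R 4.3.3; TMM scaling, filterByExpr with a minimum count of 10, robust quasi-likelihood F-test, Benjamini-Hochberg adjustment over all genes tested, called under 0.05) on the 30 WT libraries with age and sex as terms. CPM are on TMM-adjusted totals, and ± gives standard errors. The difference between the sexes was an interaction term over 20 libraries.

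Span-only means called for week 24 over week 3 and in neither step. Named were the 10 higher and 10 lower called genes of largest fold change (averaging 1 CPM or more, the same direction in each sex, unnamed gene models left out), the 3 of smallest p, the 12 higher and 12 lower such span-only genes, and in each of 49 lists up to 4 called and 3 span-only members; others were chosen after their values were seen. The comparison, members, lists and motifs were chosen with earlier results of these data known. The scripts were tested on simulated data. Alternatives were DESeq2 1.42.0, limma 3.58.1 (voom), other scaling, filters and thresholds, no sex term, each sex alone, a replicate block and each library left out; the GC offsets (a natural spline with 4 degrees of freedom on the GC content of the longest transcript) and leaving out single NLGF week 3 libraries were chosen after seeing the data. Coordinates are those of GRCm38.p6. Some genes that the naming rule would select are not reported here.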

Additional observations from a re-analysis of the deposited data

Results flagged for a closer look

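For 60 genes described above, the 10 libraries of each age were examined for a highest or lowest library whose gap to its neighbour exceeds Dixon's 95% critical value for groups of 10, as a share of the range. By chance about 1 in 20 groups is marked if groups are independent and their values normally distributed. Here 19 of 180 (10.6%) were, 5 of them in week 8 female 1. The genes share libraries, and some were described above for an outlying library, so this share cannot be set against that rate. In that library C4b stood high at 70 CPM, Dbp at 54.7 and Fmo2 at 2.48, and Fkbp3 stood low at 12.7 and Nap1l5 at 94.1. In week 8 male 5 stood Gad1 at 416 CPM, Dcx at 55.6 and Eomes at 8.03. Cbln3 was 1.86 CPM in week 8 female 3. In week 24 male 4, Hspg2 was 70.9 CPM, Slc6a13 9.41 and Fmo2 6.34. Eomes was 3.31 CPM in week 24 male 3, Gabra4 was 121 CPM in week 24 female 5, and week 24 female 4 held C1qa at 36.2 and Rpl37 at 106 CPM. At week 3, female 5 held Gbp2 at 52.5 and Xdh at 17.5 CPM, and female 2 held Lars2 at 478 CPM.

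For 12 genes the change from week 3 to week 24 differed between the sexes (edgeR's interaction term, adjusted p under 0.05). The male minus female log2 difference was 0.817 for Fkbp3, 1.12 for Nap1l5, 0.894 for Marcks, 1.07 for 2900052N01Rik and 1.12 for ND6. It was 0.797 for Arxes2, 0.543 for Cox7b, 0.583 for Pnrc1, 0.543 for Gatad1, 0.563 for Psip1, 1.31 for A530058N18Rik and 0.574 for Ndufa6. Of these genes, Fkbp3 and Nap1l5 are also among those at which week 8 female 1 stood apart.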

How the results depend on the processing

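The number of full span calls (3693) was 816 in females alone, 818 when a fold of at least 1.2 was tested and 2053 at an adjusted p under 0.01. It was 3118 to 4364 with 1 library left out, 4094 by DESeq2, 5159 by voom and 4132 with the GC trend removed. The week 8 over week 3 calls of the early step (1202) gave 1931 by voom, 522 in females alone, 252 with the fold test, 594 at 0.01, and 999 to 2029 with 1 library left out, the highest without week 8 female 1. The late step (47) gave 111 by DESeq2, 87 by voom, 0 in females alone, 24 in males alone, 3 with the fold test, 31 on its own 20 libraries, 9 at 0.01 and 83 at an adjusted p under 0.1. It ranged from 28 (without week 24 male 2) to 81 (without week 8 female 3) with 1 library left out, and was 29 without week 24 male 1 and 31 without week 8 female 2. Span-only genes (2604) numbered 460 in females alone, 1499 at 0.01, 803 when both steps had to miss an unadjusted p of 0.05, 571 with the fold test (242 of the 2604 among them), 3402 by voom, 3589 with each comparison on its own 20 libraries, and 2120 to 2794 with 1 library left out.

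The sex difference of the full span change (12 genes) was called for 415 by DESeq2 and for 1 to 369 with 1 library left out: 1 without week 24 female 1 or week 3 female 2, 3 without week 3 male 1, 4 without week 24 female 4, 6 without week 3 male 3, 21 without week 24 female 3, 23 without week 3 male 4, 28 without week 3 female 3, 99 without week 24 male 4, 136 without week 24 female 2 and 369 without week 3 male 5. Span-only or slow genes in NLGF called alike (1461) numbered 1155 with all 30 libraries and 673 to 1514 with 1 left out. Single genes that reversed in females alone were Nap1l5 (-0.197), Marcks (-0.331), Arxes2 (-0.278), Cox7b (-0.121) and Ndufa6 (-0.0103). In the interaction fit A530058N18Rik (0.707 in males and -0.605 in females) and 2900052N01Rik (1.02 and -0.0502) also had opposite signs. In each of these cases the cause was not tested.

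Same-numbered libraries share only a number: the correlation of their deviations ran from -0.396 to 0.588, was over 0.1 in 8 of 30 pairs, and 6 of 30 libraries correlated best with their own number. With a replicate block the span called 3285, the early step 1002 and the late step 29 genes, and 2360 were span-only. Depth limits genes near 1 CPM, where 1 library can hold few counts.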
